A study of Mus musculus with 12 samples.

Results

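The effect of dietary selenium (Se) on liver mRNA was measured on 6 of the 12 arrays of the study. These are the arrays labelled as mouse liver, with 3 arrays of 0.1 Se liver and 3 of 0 Se liver. All mice were male wild-type FVB/N mice that received a Se-deficient, torula yeast-based diet from weaning at 3 weeks of age. The diet of the 0.1 Se mice had 0.1 ppm Se added as sodium selenite, that of the 0 Se mice had 0 ppm added, and both were fed for 6 weeks. Each array held total RNA of whole liver from a different mRNA sample of its diet group. The arrays were Affymetrix mouse genome chips, and the values are log2 of the MAS5 signal of a probe set, a group of short probes for a transcript. A log2 difference is 0.1 Se minus 0 Se throughout, given with its SE.

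Selenium acts mainly as selenocysteine (Sec), an amino acid that the ribosome inserts at UGA codons of selenoprotein mRNAs. When Se is scarce, the mRNAs of some selenoproteins are lost while others are maintained, which is known as the selenoprotein hierarchy. The liver takes up dietary Se, makes the plasma carrier selenoprotein P, and also holds the largest pool of resident macrophages, the Kupffer cells.

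The 6 liver arrays listed between 17235 and 17923 probe sets each, and any pair of them correlated between 0.978 and 0.988 across probe sets. To check the tissue label, hepatocyte markers were read: all 14 in the table were listed on every liver array, such as albumin (Alb) at a mean log2 signal of 15.69 in 0 Se liver and 15.85 in 0.1 Se liver. Markers of neutrophils (9 in the table) and of bile duct cells (5 in the table) had too few listed values to be tested. Of T and NK cell markers, 2 of 15 in the table had enough values. With at least 2 values in each diet, 16575 probe sets were tested, and those assigned to a single gene covered 8991 genes. The median log2 difference over all genes tested was 0.0008, and the middle 50% of genes lay between -0.11 and 0.11.

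Of the 16575 probe sets, 2 (0.0121%) passed limma's test at an adjusted p of 0.05, and both rose in 0.1 Se liver. For comparison of the gene lists that follow, 295 of the 8991 genes (3.28%) were higher in 0.1 Se liver at an unadjusted p under 0.05 and 291 (3.24%) were lower. These counts lay between 176 and 504 higher and between 163 and 490 lower on leaving out each array, with the most calls without 0.1 Se liver replicate 1. The share higher was 5.85% without that array and 2.02% without 0 Se liver replicate 2. Counts of a list on leaving out an array are to be read against such shifts over all genes. Among the 8303 genes that were listed on every liver array, all 0.1 Se values exceeded all 0 Se values in 437 (5.26%), and the opposite was found in 533 (6.42%). Each list below is described against these shares, and its members are given by value where they did not pass the test.

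Selenow, the small thioredoxin-like selenoprotein W, was the named gene that passed. Its log2 signals were 8.40, 8.88 and 8.97 on the 0 Se arrays and 10.68, 10.69 and 10.25 on the 0.1 Se arrays. The lowest array of 0.1 Se liver was thus well above the highest array of 0 Se liver, and the signal rose by 1.79 ± 0.19 (3.46-fold, adjusted p = 0.0171). The only probe set of Selenow ends in _x_at, a design that can bind related transcripts. Leaving out any 1 array of 0 Se liver, or replicate 2 of 0.1 Se liver, ended the call at differences between 1.61 and 1.90. The other probe set that passed carries no gene name in the array annotation. It read 7.47 and 7.41 on 2 of the 0 Se arrays and was blank on the third, against 9.69, 9.25 and 9.71 in 0.1 Se liver, so that the diets did not overlap, and its log2 signal rose by 2.11 ± 0.21 (adjusted p = 0.0171). Leaving out replicate 3 of 0.1 Se liver ended this call too (2.03), and replicates 1 and 3 of 0 Se liver were both needed to test it.

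Of the 17 selenoprotein genes tested, 8 were higher in 0.1 Se liver at an unadjusted p under 0.05 and 2 were lower, with a median difference of 0.23. The count of 8 higher was 6 without replicate 1 or 2 of 0 Se liver and 9 without its replicate 3. It stayed at 8 without any 1 array of 0.1 Se liver. The list had been chosen with values of these arrays known. The arrays of the diets did not overlap in 12 of the 17 genes, 9 of them higher in 0.1 Se liver. Below Selenow in size came Selenoh, a nucleolar selenoprotein, which read 8.94, 8.73 and 8.92 in 0 Se liver and 9.71, 10.21 and 10.01 in 0.1 Se liver (1.11 ± 0.16, adjusted p = 0.159). Selenok, a membrane protein of the endoplasmic reticulum that takes part in calcium flux of immune cells, read 12.13, 11.75 and 12.31 against 12.84, 12.90 and 12.90 (0.82 ± 0.13, adjusted p = 0.176). Its other probe set differed by 0.73. Both genes had every 0.1 Se array above every 0 Se array. Both passed the test when the 12 arrays of the study, lung included, were fitted together (adjusted p = 0.0114 for Selenoh and 0.0251 for Selenok). Of 17 alternative fits, Selenoh passed in 2 and Selenok in 1, with adjusted p up to 0.54 and 0.62.

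The selenoprotein enzymes of antioxidant defence lay on both sides of 0. Gpx1, the cytosolic glutathione peroxidase, read 14.61, 14.58 and 14.94 in 0 Se liver and 15.29, 15.26 and 15.24 in 0.1 Se liver (0.56 ± 0.11, adjusted p = 0.377). The diets did not overlap, and the SD was 0.025 over the 0.1 Se arrays and 0.20 over the 0 Se arrays. Gpx4, the peroxidase of membrane lipids, lay the other way, at 13.74, 13.80 and 13.80 against 13.67, 13.71 and 13.67. This difference of -0.10 ± 0.08 was small, although the diets did not overlap. Txnrd1, the cytosolic thioredoxin reductase, was higher on every 0.1 Se array (0.37 ± 0.12), as was Txnrd3 (0.57 ± 0.18), a thioredoxin-glutathione reductase best known from testis. Other probe sets of Txnrd3 differed by 0.23 and 0.20. Mitochondrial Txnrd2 differed by -0.04 ± 0.24, and a further probe set of it was listed on the 3 0.1 Se arrays (9.05, 9.05 and 9.27) and on no 0 Se array. Msrb1, which reduces oxidized methionine, differed by 0.28 ± 0.13 with 1 array overlapping.

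**Figure D1:**
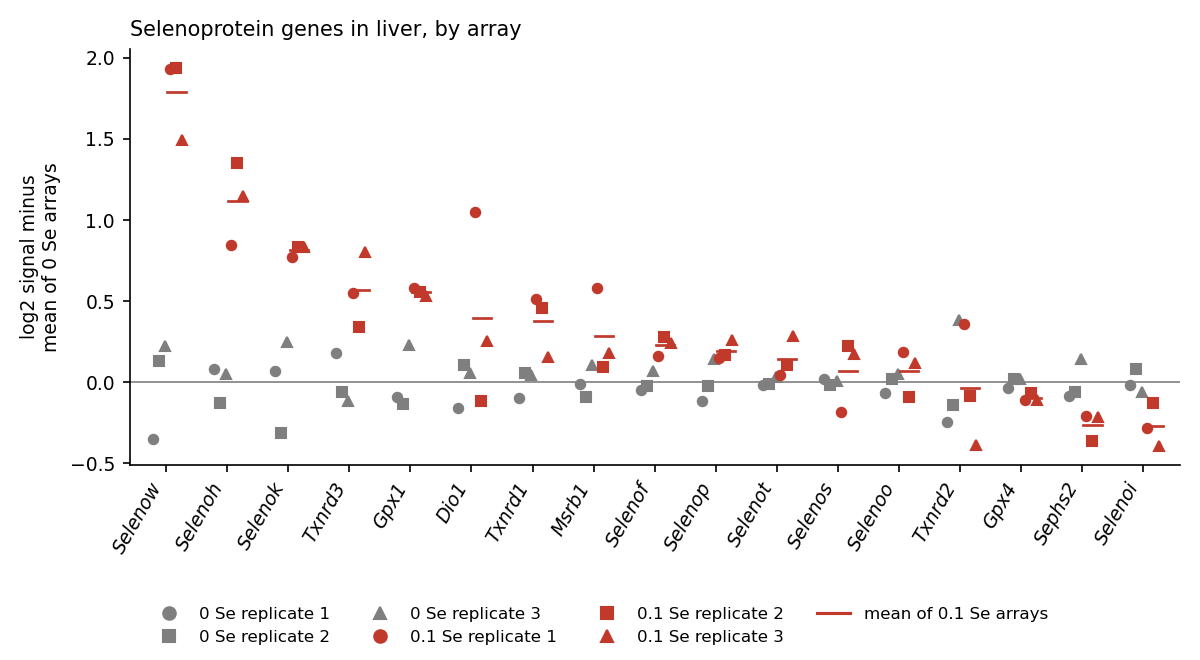
Log2 signal of each of the 17 selenoprotein genes tested on the 3 arrays of each diet, minus the mean of the 0 Se arrays of that gene. Points are single arrays, red bars are means of 0.1 Se liver, and the genes run from Selenow (1.79) to Selenoi (-0.27).

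Apart from Selenok, selenoproteins of the endoplasmic reticulum and of transport had smaller differences. Selenop, the Se carrier that liver secretes into plasma, read 15.43, 15.52 and 15.68 against 15.69, 15.71 and 15.80 (0.19 ± 0.10). The diets did not overlap, but the highest 0 Se array nearly reached the lowest 0.1 Se array. Selenof, of the glycoprotein folding pathway, differed by 0.23 ± 0.08 and Selenot by 0.14 ± 0.09, both without overlap. Selenos, a component of the degradation machinery of the endoplasmic reticulum, differed by 0.07 ± 0.11. Dio1, the deiodinase that activates thyroid hormone, read 12.59, 12.86 and 12.80 against 13.80, 12.63 and 13.004. The diets overlapped for Dio1, and the difference of 0.40 ± 0.23 was 0.069 when replicate 1 of 0.1 Se liver was left out. Selenoo, a mitochondrial protein that attaches AMP to other proteins, differed by 0.07 ± 0.11.

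The 2 selenoprotein genes lower in 0.1 Se liver at an unadjusted p under 0.05 were Sephs2 and Selenoi. Sephs2 makes the selenophosphate needed for Sec synthesis and read 14.62, 14.64 and 14.84 in 0 Se liver and 14.49, 14.34 and 14.48 in 0.1 Se liver (-0.26 ± 0.10, adjusted p = 0.664). Its other probe sets differed by -0.29 and -0.10. Selenoi, an ethanolamine phosphotransferase of phospholipid synthesis, differed by -0.27 ± 0.11 (adjusted p = 0.733) with all arrays of 0.1 Se liver below those of 0 Se liver. The count of 2 lower genes did not hold on leaving out any 1 array: it was 0 without 0 Se liver replicate 3 and 1 without each of the others. The 9 tested genes of Sec synthesis and Se handling showed 0 members at an unadjusted p under 0.05 in either direction and a median of -0.05. Among them Scly, the lyase that recovers Se from free selenocysteine, differed by -0.34 ± 0.21, with 0.1 Se replicate 3 at 9.09 and the other arrays between 9.79 and 10.02. Sepsecs, the enzyme of the last step of Sec synthesis on its tRNA, differed by -0.14 ± 0.12, and Secisbp2, which binds the Sec insertion element of the mRNA, by -0.09 ± 0.24. The remaining members Sars, Sephs1, Ncl, Eefsec, Trnau1ap and Selenbp1 differed by -0.13 to 0.13, all with overlap.

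Interferon-inducible GTPases were the list with the highest median. Some of these proteins coat and disrupt the vacuoles of intracellular pathogens, and the genes of the family are classical targets of interferon-γ. Many promoters of these genes are known to carry an interferon-stimulated response element (ISRE) and a gamma-activated site (GAS). To show what the array members share in sequence, the 250 bases before the RefSeq gene start were searched on both strands for the letters GAAANNGAAA (ISRE-like) and TTCNNNGAA (GAS-like, which reads the same on either strand). Windows were found for 8 of the 11 GTPase genes tested. The ISRE-like letters stood in 7 of these (Igtp, Irgm1, Irgm2, Gbp2, Gbp2b, Gbp3 and Gbp7) and in 3.46% of all 27025 genes with a window. They also stood in 6 of 14 type I interferon targets. None stood in the 9 other interferon-γ pathway genes or the 10 genes of the immunoproteasome and peptide loading with a window. The GAS-like letters stood in 3 of the 8 GTPase genes and in 8.13% of all genes. They also stood in 3 of 9 other interferon-γ pathway genes and in 7 of 24 acute phase genes. The 3 GTPase genes that held both are printed from RefSeq on build GRCm38.p6, plus strand, 5′ to 3′, with the matched letters in capitals. Matches of the different elements did not overlap in these windows, and a match is not evidence of binding.
Igtp (chr11:58199306-58199555): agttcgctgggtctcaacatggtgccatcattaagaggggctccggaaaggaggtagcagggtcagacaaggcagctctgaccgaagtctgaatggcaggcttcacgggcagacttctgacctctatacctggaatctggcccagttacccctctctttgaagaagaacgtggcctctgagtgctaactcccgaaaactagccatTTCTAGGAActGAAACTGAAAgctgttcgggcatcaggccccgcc
Irgm2 (chr11:58214727-58214976): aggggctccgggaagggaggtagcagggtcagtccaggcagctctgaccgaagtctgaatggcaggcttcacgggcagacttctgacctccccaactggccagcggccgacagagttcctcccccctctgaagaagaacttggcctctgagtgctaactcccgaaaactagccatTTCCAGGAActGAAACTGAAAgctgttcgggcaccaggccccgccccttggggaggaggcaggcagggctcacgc
Gbp7 (chr3:142530086-142530335): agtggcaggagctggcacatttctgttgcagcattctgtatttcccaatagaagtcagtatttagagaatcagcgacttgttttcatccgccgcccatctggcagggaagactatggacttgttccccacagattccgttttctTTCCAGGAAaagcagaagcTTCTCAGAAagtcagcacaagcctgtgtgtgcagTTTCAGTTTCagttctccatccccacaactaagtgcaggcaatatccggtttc

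In Igtp the GAS-like letters lay 45 to 37 bases and the ISRE-like letters 34 to 25 bases before the start. In Irgm2, which neighbours Igtp on the chromosome, these distances were 75 to 67 and 64 to 55 bases, so the spacing of the elements was the same. Gbp7 held GAS-like letters at 106 to 98 and 87 to 79 bases, and the ISRE-like letters at 53 to 44 bases.

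All 11 GTPases tested had a positive difference, and 8 of them had an unadjusted p under 0.05, with a median difference of 0.65. None passed the adjusted test. Igtp, an immunity-related GTPase, read 11.70, 11.32 and 11.56 in 0 Se liver and 12.26, 12.92 and 12.75 in 0.1 Se liver (1.11 ± 0.16, adjusted p = 0.159). Gbp7, a guanylate-binding protein, read 10.13, 9.91 and 10.33 against 10.74, 11.14 and 10.63 (0.71 ± 0.16, adjusted p = 0.441), and 0.85 was found on its other probe set. Both were without overlap. Gbp8 had a wider spread, from 7.95 to 9.66 in 0 Se liver and from 9.73 to 10.26 in 0.1 Se liver (1.21 ± 0.35). Ifi47 read 10.73, 10.34 and 10.36 against 10.75, 11.63 and 10.81 (0.59 ± 0.22), and only replicate 2 of 0.1 Se liver stood clearly apart.

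The remaining GTPases overlapped between the diets. Their differences were 0.80 ± 0.33 for Gbp2b, 0.69 ± 0.27 for Gbp3, 0.65 ± 0.25 for Irgm2, 0.63 ± 0.30 for Gbp2, 0.62 ± 0.26 for Gbp6, 0.33 ± 0.17 for Irgm1 and 0.24 ± 0.11 for Iigp1. In each of the 11 genes, 0.1 Se liver replicate 2 was the highest of the 6 arrays. The mean log2 signal of the list was 10.49, 9.93 and 10.12 on the 0 Se arrays and 10.65, 11.27 and 10.69 on the 0.1 Se arrays. When 0.1 Se liver replicate 2 was left out, 3 members had an unadjusted p under 0.05 and the median was 0.39. Leaving out replicate 3 of 0 Se liver gave 4 members and 0.55, and leaving out its replicate 2 gave 5 members and 0.61. All 11 differences stayed above 0 in each of these cases, and the count was 9 without any 1 of the other arrays.

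**Figure D2:**
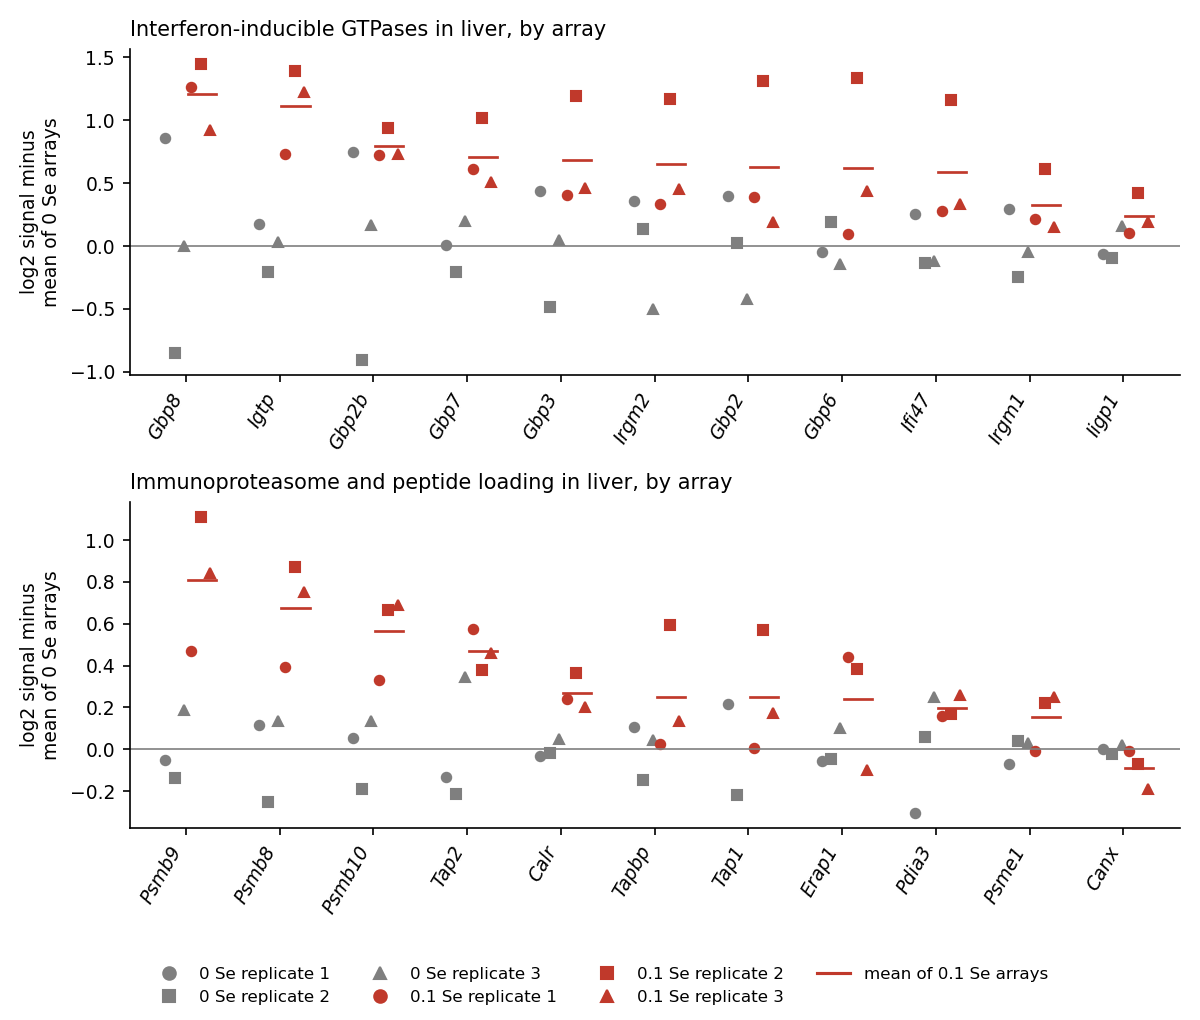
Log2 signal of the 11 interferon-inducible GTPases tested (top) and of the 11 genes of the immunoproteasome and peptide loading (bottom) on each liver array, minus the mean of the 0 Se arrays of that gene. Red bars are means of 0.1 Se liver, and replicate 2 of 0.1 Se liver (red squares) is the top point for every GTPase.

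Macrophage genes were measured beside the GTPases. Of 22 markers of Kupffer cells and macrophages, all of them tested, 21 had a positive difference and 11 an unadjusted p under 0.05. The mean log2 signal of 21 of these markers was 10.10, 9.77 and 9.999 on the 0 Se arrays and 10.34, 10.63 and 10.25 on the 0.1 Se arrays, so that its lowest and highest arrays were those of the GTPases. In whole liver RNA, fewer cells of a type and less RNA per cell cannot be told apart, and the part of macrophage number in the GTPase values was not tested.

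Other genes of the interferon-γ pathway were mostly without a difference at an unadjusted p under 0.05. The receptor chains Ifngr1 and Ifngr2 differed by 0.01 ± 0.15 and 0.13 ± 0.20, and the receptor kinases Jak1 and Jak2 by 0.02 ± 0.11 and -0.10 ± 0.13. Among targets, the T cell chemoattractant Cxcl9 read 9.16, 8.58 and 9.04 in 0 Se liver and 9.81, 10.51 and 9.65 in 0.1 Se liver (1.06 ± 0.23, adjusted p = 0.441), with no overlap. Transcription factor genes Irf8 (0.47 ± 0.18) and Irf1 (0.43 ± 0.18) had an unadjusted p under 0.05, Irf8 without overlap. Further targets did not reach that level, such as the adhesion molecule Icam1 (0.01 ± 0.24) and the invariant chain Cd74 (0.45 ± 0.21). In all, 3 of the 13 genes of this list reached that level, all higher, with a median of 0.38. Leaving out replicate 2 of either diet left 1.

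The catalytic subunits that interferon exchanges into the proteasome to make peptides for antigen presentation were higher on every 0.1 Se array. Psmb9 read 10.49, 10.40 and 10.73 against 11.01, 11.65 and 11.38 (0.81 ± 0.16, adjusted p = 0.379). Psmb8 differed by 0.67 ± 0.15 and Psmb10 by 0.56 ± 0.13. The constitutive proteasome subunits were a contrast, with 0 of 25 genes at an unadjusted p under 0.05 and differences between -0.18 and 0.13. Of the 11 genes of the immunoproteasome and peptide loading, 5 were higher at that level and 0 were lower, with a median of 0.25. The count was also 5 without replicate 2 or 3 of 0.1 Se liver. It was 4 without replicate 1 or 2 of 0 Se liver and 6 without either of the other arrays. The 5 include Calr, which is counted again among the chaperones below. Tap2, a peptide transporter subunit, differed by 0.47 ± 0.19, whereas Canx, a general chaperone of glycoproteins, differed by -0.09 ± 0.08.

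MHC class I genes, which present those peptides, differed by 0.05 to 0.58, and 3 of 5 had an unadjusted p under 0.05. H2-K1 and H2-D1 read between 14.26 and 14.51 in 0 Se liver and between 14.54 and 14.73 in 0.1 Se liver, with differences of 0.24 ± 0.09 and 0.26 ± 0.10. These near-identical genes may share probes. H2-M3, which presents formylated peptides, differed by 0.58 ± 0.15 without overlap, and B2m, the shared light chain, by 0.05 ± 0.09 with overlap. The count of 3 was 1 without 0 Se liver replicate 2 and 2 without replicate 1 of 0 Se liver or replicate 2 or 3 of 0.1 Se liver. Of 17 targets of type I interferon, 13 had a positive difference, and the median of the list was 0.25. At an unadjusted p under 0.05, 1 was higher and 1 lower. Herc6, a ubiquitin ligase, differed by 0.51 ± 0.15 and Oasl1, of the antiviral OAS family, by -0.63 ± 0.23.

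Acute phase genes, which hepatocytes express under interleukin-6 and interleukin-1, had a positive difference in 28 of 29 genes tested, and 12 had an unadjusted p under 0.05, with a median of 0.26. Saa1, a serum amyloid A gene, read 12.19, 11.96 and 12.33 in 0 Se liver and 12.91, 14.19 and 13.30 in 0.1 Se liver (1.31 ± 0.26, adjusted p = 0.379). Saa2 read 9.74, 9.77 and 9.89 against 10.41, 12.77 and 10.81 (1.53 ± 0.47, adjusted p = 0.607). Both were without overlap, and 0.1 Se liver replicate 2 was the highest. Saa1 and Saa2 are close paralogs that array probes may not fully separate.

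Lcn2, an iron-chelator binding protein of innate defence, read 7.06, 7.004 and 7.91 against 8.50, 10.35 and 8.54 (1.80 ± 0.45, adjusted p = 0.492). Of receptor genes of the inducing cytokines, Il1r1 and Il6ra were among the 12, whereas Il6st (0.08 ± 0.10, with overlap) was not. Il1r1, the interleukin-1 receptor, read 9.49, 9.56 and 10.13 against 10.92, 10.41 and 10.39 (0.85 ± 0.20), and Il6ra, the interleukin-6 receptor, 9.82, 9.59 and 10.49 against 11.28, 10.76 and 10.40 (0.85 ± 0.25). In Il1r1 and Il6ra 0.1 Se liver replicate 1 was the highest, and the diets overlapped for Il6ra. Steap4, a metalloreductase, differed by 0.59 ± 0.15, Saa3 by 0.63 ± 0.18 and Orm2, an acid glycoprotein, by 0.70 ± 0.23, each without overlap.

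Itih4, a heavy chain of the inter-alpha-trypsin inhibitor family, differed by 0.22 ± 0.09 and did not overlap either. The other acute phase genes tested overlapped between the diets. Fibrinogen chains Fga, Fgb and Fgg differed by -0.02 ± 0.10, 0.12 ± 0.11 and 0.09 ± 0.11, and haptoglobin (Hp) by 0.19 ± 0.10. The mean log2 signal of the list was 12.30, 12.33 and 12.61 in 0 Se liver and 12.74, 13.08 and 12.73 in 0.1 Se liver. Leaving out replicate 2 of 0.1 Se liver left 8 members with an unadjusted p under 0.05 and a median of 0.23, and leaving out that of 0 Se liver 8 members and 0.25. The 26 complement and coagulation genes, which hepatocytes also secrete, had 0 members at that level and a median of 0.02.

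Within the macrophage markers, the scavenger receptor Marco read 7.41, 7.08 and 7.69 in 0 Se liver and 8.21, 8.40 and 8.28 in 0.1 Se liver (0.90 ± 0.20, adjusted p = 0.441). Clec4f, a lectin of Kupffer cells, read 11.45, 11.26 and 11.35 against 11.69, 11.82 and 11.74 (0.39 ± 0.10, adjusted p = 0.492). Both were without overlap and neither had replicate 2 far from the others. Aif1, a macrophage activation marker, differed by 1.04 ± 0.29 and the IgG receptor Fcgr4 by 0.84 ± 0.19. C1qc, a chain of the complement starter C1q, differed by 0.61 ± 0.15 and the adaptor Tyrobp by 0.60 ± 0.15. Without either replicate 2, 7 markers had an unadjusted p under 0.05. Without 0.1 Se liver replicate 3, 15 did. Markers of hepatocytes, endothelial and stellate cells had 0 members higher at that level: 9 endothelial genes had a median of 0.07, 8 stellate cell genes of 0.01 and 14 hepatocyte genes of 0.12. Glul, glutamine synthetase of the hepatocytes around the central vein, read 13.25, 13.41 and 13.32 against 13.24, 13.05 and 12.94 (-0.25 ± 0.10) and was the hepatocyte gene lower at that level. Of lymphocyte markers, few had enough values to be tested. Gzma, a granzyme of T and NK cells and 1 of 2 such markers tested, read 7.08 and 6.78 with 1 blank in 0 Se liver and 7.63, 7.63 and 7.42 in 0.1 Se liver (0.63 ± 0.22, unadjusted p = 0.0161). Jchain, the joining chain of secreted antibodies and 1 of 3 B cell and plasma cell markers tested, had 2 values a diet, 6.77 and 6.68 against 7.31 and 7.32 (0.59 ± 0.24, unadjusted p = 0.0351). The other B cell and plasma cell markers, Mzb1 and Ighm, differed by -0.41 ± 0.22 and -0.08 ± 0.26. Neither Gzma nor Jchain overlapped between the diets or passed the adjusted test, and the part of these cells in the macrophage and interferon lists was not tested.

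**Figure D3:**
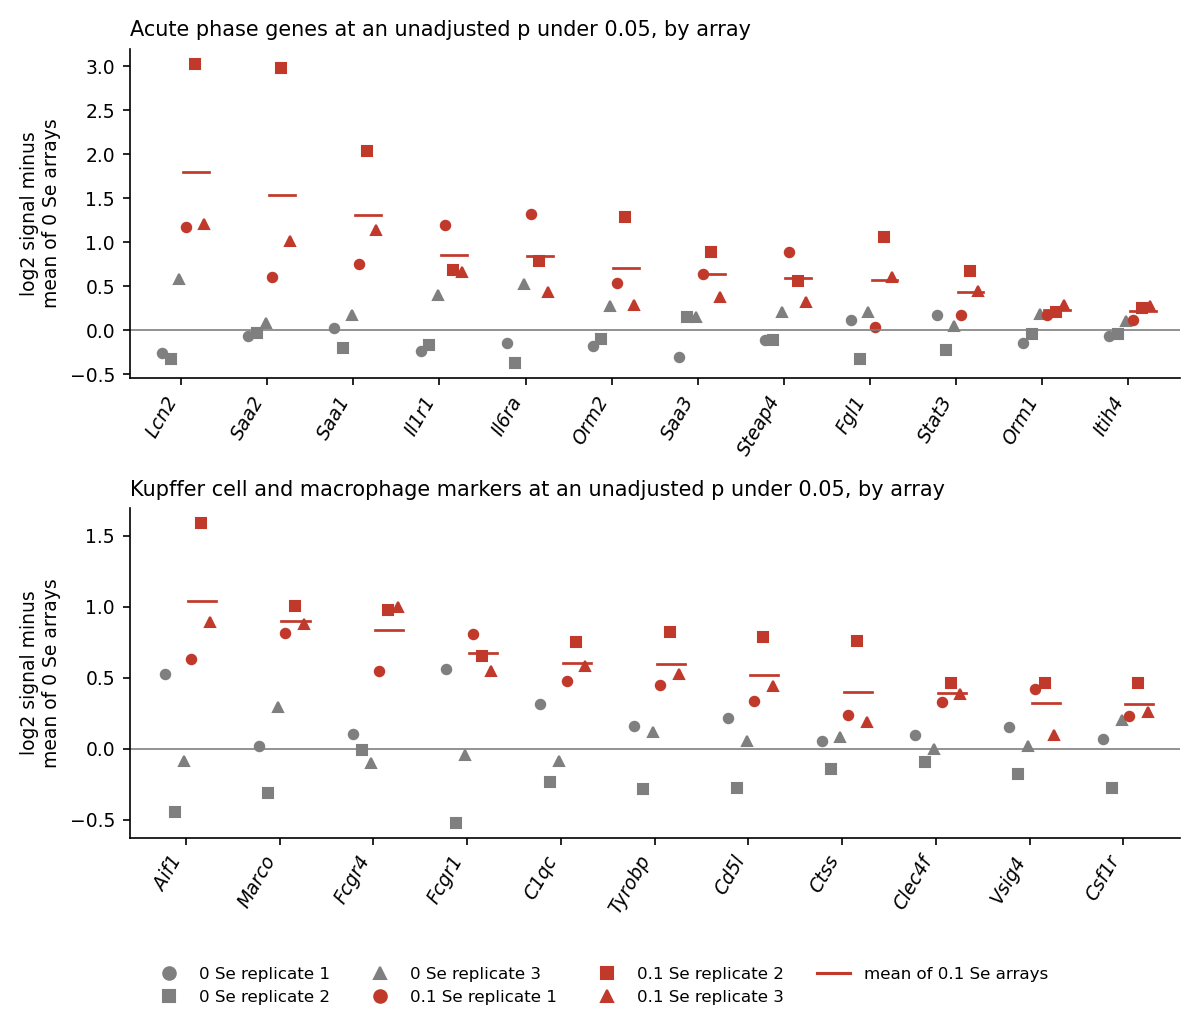
Log2 signal on each liver array, minus the mean of the 0 Se arrays, for the 12 acute phase genes (top) and the 11 Kupffer cell and macrophage markers (bottom) with an unadjusted p under 0.05. Red bars are means of 0.1 Se liver, and red squares (replicate 2) lie far above the other 0.1 Se points for Lcn2 and Saa2 but not for Marco or Clec4f.

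Chaperones of the endoplasmic reticulum, where secreted proteins and several selenoproteins fold, had a positive difference in 21 of 23 genes of the unfolded protein response, with 6 members at an unadjusted p under 0.05 and a median of 0.18. Genes of this response are known to carry the ER stress response element, with the letters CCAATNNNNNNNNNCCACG. These were found on either strand of the 250-base window in 7 of the 20 genes of the list that have one (Hspa5, Hsp90b1, Dnajc3, Creld2, Pdia6, Calr and Canx) and in 0.13% of all 27025 genes. The windows of the 3 members with the smallest p are printed 5′ to 3′ in the direction of the gene, with the matched letters in capitals (Calr is on the minus strand, the others on the plus strand).
Calr (chr8:84846932-84847181): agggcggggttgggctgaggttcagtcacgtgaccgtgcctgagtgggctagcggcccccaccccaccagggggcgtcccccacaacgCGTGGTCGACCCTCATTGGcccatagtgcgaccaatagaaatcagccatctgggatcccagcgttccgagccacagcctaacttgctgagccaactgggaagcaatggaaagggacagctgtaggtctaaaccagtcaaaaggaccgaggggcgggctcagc
Pdia6 (chr12:17266339-17266588): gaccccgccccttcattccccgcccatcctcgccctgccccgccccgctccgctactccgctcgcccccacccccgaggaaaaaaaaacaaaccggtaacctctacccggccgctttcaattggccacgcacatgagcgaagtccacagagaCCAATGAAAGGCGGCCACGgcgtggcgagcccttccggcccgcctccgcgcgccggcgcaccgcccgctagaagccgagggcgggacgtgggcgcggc
Dnajc3 (chr14:118937682-118937931): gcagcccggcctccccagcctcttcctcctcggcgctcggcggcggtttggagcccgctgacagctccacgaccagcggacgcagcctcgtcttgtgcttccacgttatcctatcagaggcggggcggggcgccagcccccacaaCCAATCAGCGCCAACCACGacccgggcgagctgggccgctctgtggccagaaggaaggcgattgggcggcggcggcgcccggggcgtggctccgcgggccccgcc

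Calr, the calcium-binding lectin calreticulin, read 13.93, 13.94 and 14.01 in 0 Se liver and 14.20, 14.32 and 14.16 in 0.1 Se liver (0.27 ± 0.08, adjusted p = 0.613). Pdia6, a disulfide isomerase, differed by 0.29 ± 0.09 and the co-chaperone Dnajc3 by 0.27 ± 0.09, and in all of these genes the diets did not overlap. Hyou1, a large chaperone of the HSP70 family, differed by 0.31 ± 0.12, also without overlap. Canx and Hsp90b1 also held the letters, with differences of -0.09 ± 0.08 and 0.03 ± 0.11. Single arrays weighed on this list. Its count of 6 became 13 without replicate 1 of 0.1 Se liver, while the count higher over all genes rose from 295 to 504. It was 3 without replicate 2 of 0.1 Se liver (278 over all genes) and 2 without replicate 2 of 0 Se liver (176 over all genes). Without replicate 2 of 0.1 Se liver, 14 of the 23 differences were above 0 and the median was 0.057.

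In fat metabolism, 4 of 25 genes of fatty acid and triglyceride synthesis were higher at an unadjusted p under 0.05 and 0 were lower, with a median of 0.10. Acacb, the acetyl-CoA carboxylase whose product restrains fatty acid entry into mitochondria, read 9.11, 9.68 and 9.49 in 0 Se liver and 10.66, 10.41 and 10.31 in 0.1 Se liver (1.03 ± 0.17, adjusted p = 0.176). Lpin1, a phosphatidate phosphatase, read 11.04, 11.69 and 12.07 against 12.76, 12.25 and 12.46 (0.89 ± 0.22), and its relative Lpin2 11.94, 12.39 and 12.83 against 13.37, 13.05 and 12.97 (0.74 ± 0.19). For these 3 genes the diets did not overlap and 0 Se liver replicate 1 was the lowest array. The count of 4 became 9 on leaving out replicate 1 of 0.1 Se liver, while the count higher over all genes rose from 295 to 504. It was 3 to 5 without any 1 of the other arrays.

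Thrsp, a lipogenic nuclear protein, differed by 0.25 ± 0.10. The SREBP target Fasn, fatty acid synthase, read 13.51, 13.13 and 12.33 against 12.22, 13.79 and 13.59 and so varied as much within as between diets. In cholesterol synthesis, Idi1, an isomerase of isoprenoid units, was the 1 of 18 genes at an unadjusted p under 0.05 (-0.42 ± 0.13, adjusted p = 0.594), and its 0.1 Se arrays at 12.74, 13.16 and 13.08 lay below all 0 Se arrays. Cd36, a fatty acid uptake receptor, differed by 0.53 ± 0.21 and was the only 1 of 22 genes of fatty acid oxidation and ketogenesis at that level. Another probe set of Cd36 differed by 0.81 ± 0.20. Scarb1, the HDL receptor, differed by -0.30 ± 0.12 without overlap.

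Cytochrome P450 genes lay in both directions. Cyp2b10, the standard target of the receptor CAR, read 11.68, 11.06 and 12.02 in 0 Se liver and 13.03, 12.60 and 12.76 in 0.1 Se liver (1.21 ± 0.21, adjusted p = 0.239), and its other probe sets differed by 1.17 and 1.38. The diets did not overlap on any of them. With all 12 arrays in one fit, lung included, the probe sets with differences of 1.21 and 1.38 passed (adjusted p = 0.0425 and 0.0251). This was the only 1 of 17 alternative fits in which they passed. Of the 18 genes of the CAR and PXR pathway, Cyp2c38 was the other 1 at an unadjusted p under 0.05 (0.34 ± 0.14). Among 23 other P450 genes 1 was higher and 3 were lower at that level.

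Bile acid enzymes were on both sides. Cyp7a1, the rate-limiting enzyme of the classical pathway of bile acid synthesis, read 11.21, 11.33 and 10.69 against 12.51, 11.11 and 11.71 (0.70 ± 0.29). Its diets overlapped. Cyp7b1, of the alternative pathway, read 14.02, 14.13 and 14.13 against 13.95, 13.72 and 13.56 (-0.35 ± 0.11, adjusted p = 0.607), and a second probe set differed by -0.38. Hsd3b7, which acts in both pathways, differed by -0.34 ± 0.11, and neither gene overlapped between diets. Cyp2j9 (-0.69 ± 0.18) and the retinoic acid hydroxylase Cyp26a1 (-0.58 ± 0.24) were the other lower P450 genes.

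Glutathione and sulfur metabolism gave single genes. Gsta2, a glutathione transferase under the oxidant sensor NRF2, read 12.71, 12.91 and 12.82 in 0 Se liver and 12.49, 12.44 and 12.28 in 0.1 Se liver (-0.41 ± 0.10, adjusted p = 0.464). It was the 1 of 26 NRF2 targets and glutathione enzymes at an unadjusted p under 0.05, and the list had a median of -0.05. Csad, the decarboxylase of taurine synthesis, read 11.65, 11.88 and 11.24 against 10.32, 11.09 and 10.56 (-0.94 ± 0.20, adjusted p = 0.441), without overlap. It was the 1 of 20 sulfur amino acid genes at that level. Of 14 peroxiredoxins, dismutases and thioredoxin genes, Txnip, a binding partner of thioredoxin, was the only member at that level (0.47 ± 0.17), with overlap.

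**Figure D4:**
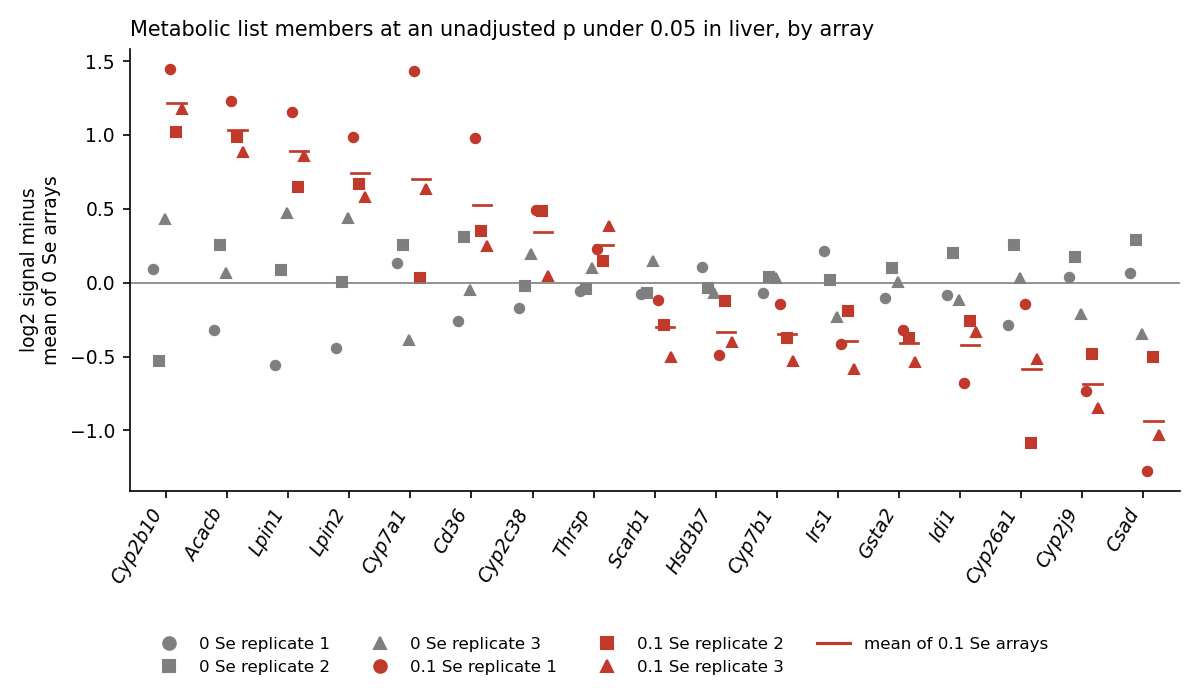
Log2 signal on each liver array, minus the mean of the 0 Se arrays, for the 17 members of the metabolic lists with an unadjusted p under 0.05. Red bars are means of 0.1 Se liver, which run from Cyp2b10 (1.21) to Csad (-0.94).

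Hormone and stress lists held further large differences. Zbtb16, a zinc finger factor induced by glucocorticoids, read 9.18, 7.55 and 8.56 in 0 Se liver and 10.30, 9.74 and 10.27 in 0.1 Se liver (1.67 ± 0.34, adjusted p = 0.416), without overlap. Nfil3, a repressor that takes part in the clock, read 9.22, 8.88 and 9.04 against 9.96, 10.30 and 9.51 (0.88 ± 0.20, adjusted p = 0.441), and Fkbp5, a co-chaperone of the glucocorticoid receptor, differed by 0.66 ± 0.27 with overlap. Of 17 glucocorticoid-responsive genes 4 were higher at an unadjusted p under 0.05 and 0 lower, with a median of 0.23. The count of 4 includes Lcn2, which is also an acute phase gene. It became 7 without 0 Se liver replicate 3 and 5 without replicate 2 or 3 of 0.1 Se liver. It was 3 without replicate 1 or 2 of 0 Se liver or replicate 1 of 0.1 Se liver. In each case with 3, 12 of the 17 differences were above 0, against 16 with all arrays. Apart from Nfil3, 0 of the 16 clock genes reached that level.

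Ccn1, a matrix protein of the immediate early class, read 9.37, 8.94 and 8.77 against 8.20, 8.42 and 7.87 (-0.86 ± 0.21, adjusted p = 0.486), and its other probe set differed by -0.34. Egr1, an immediate early factor, differed by 1.16 ± 0.45 with overlap. In the cell cycle list, Ccnd1 (0.54 ± 0.18) and its partner kinase Cdk4 (0.34 ± 0.14) were higher at an unadjusted p under 0.05, both without overlap. The cell cycle count of 2 was 0 without 0 Se liver replicate 3 or 0.1 Se liver replicate 2, and 1 without replicate 1 or 2 of 0 Se liver or replicate 3 of 0.1 Se liver. Mdm2, the ubiquitin ligase of p53, differed by 0.45 ± 0.14. Of 18 metallothionein and metal handling genes, 3 were lower at that level, namely the iron regulator Ireb2 (-0.30 ± 0.10) and the zinc transporters Slc30a1 (-0.28 ± 0.11) and Slc39a4 (-0.40 ± 0.17). That count was 0 without 0 Se liver replicate 2 and 1 without its replicate 1 or 3. Over all genes, the count lower was 291 with all arrays, and 170, 163 and 256 without replicates 2, 1 and 3 of 0 Se liver. The 25 genes of respiratory complex I, the 32 of complexes III to V and the 20 urea cycle and amino acid genes had 0 members at that level.

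**Figure D5:**
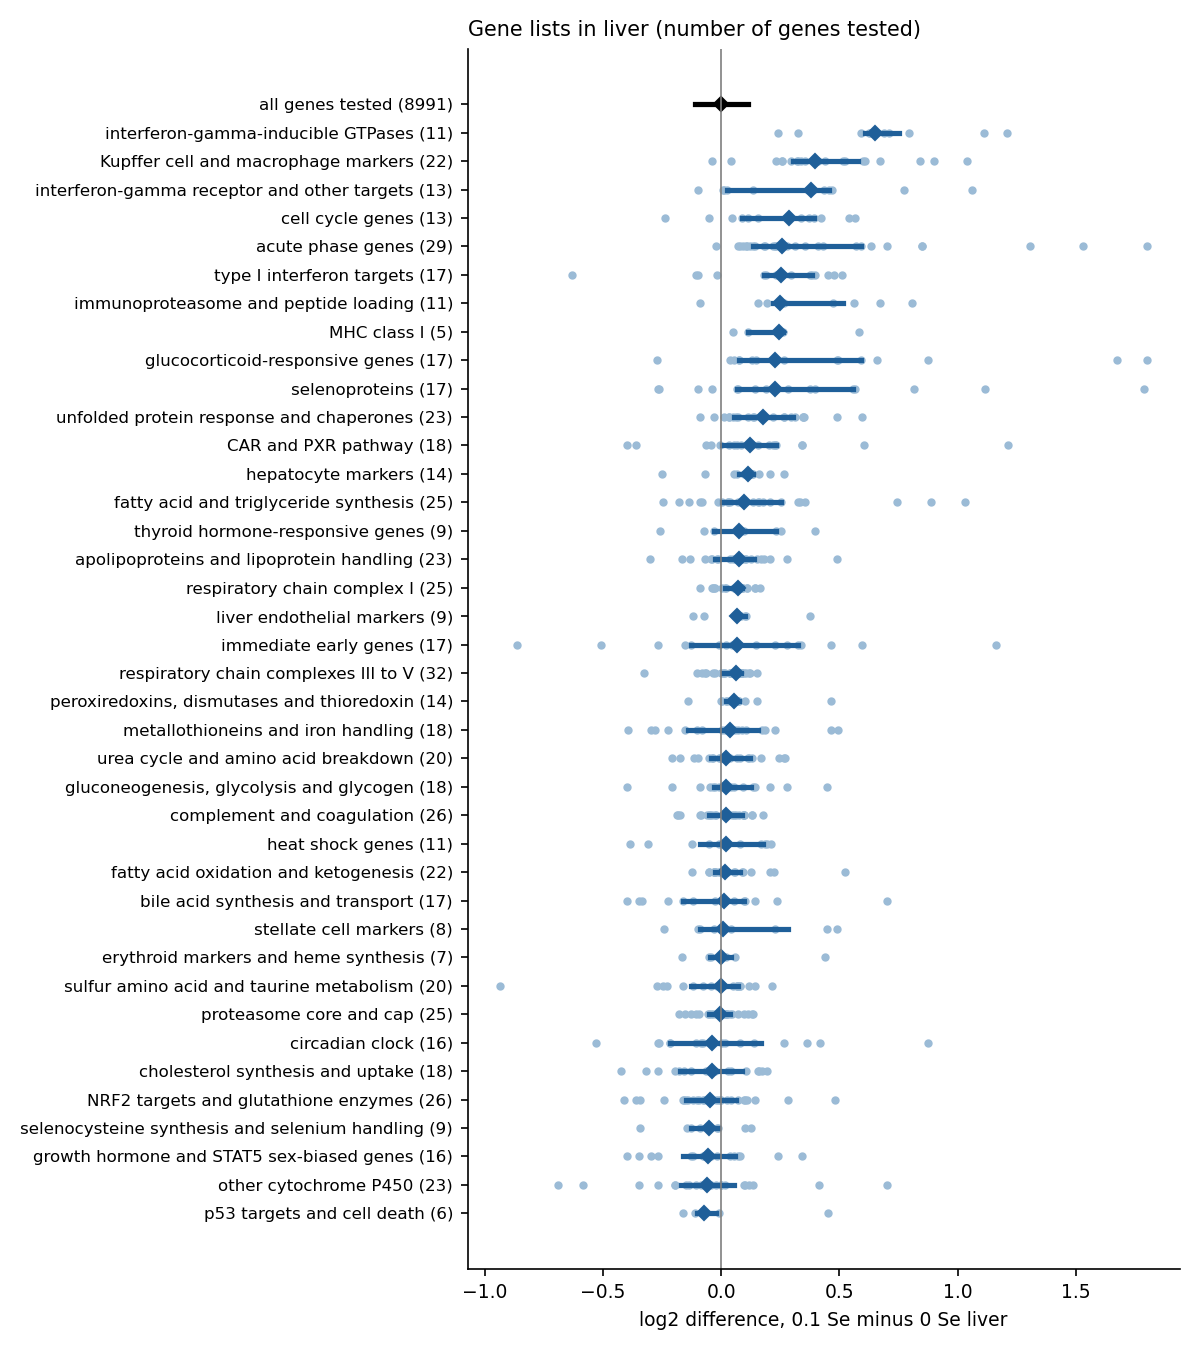
Log2 difference between 0.1 Se and 0 Se liver for every gene tested (light points) of each list with at least 5 genes tested, with the median (diamond) and the middle 50% of genes (bar). The list of interferon-inducible GTPases has the highest median (0.65), and the black bar shows all 8991 genes tested (median 0.0008).

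Some large differences belonged to no list. Above 0, BC023105 spread widely, at 8.88, 7.70 and 8.15 in 0 Se liver and 9.05, 11.44 and 10.01 in 0.1 Se liver (1.92 ± 0.50, adjusted p = 0.509). Fmo2, a flavin monooxygenase, had 2 values a diet, 6.85 and 6.78 against 8.46 and 8.12 (1.47 ± 0.24, adjusted p = 0.356), and Pclaf, a replication-associated factor, differed by 1.10 ± 0.22 with 1 blank. Below 0, Iffo2, an intermediate filament family member, read 9.94, 9.70 and 9.55 against 9.10, 8.60 and 8.30 (-1.07 ± 0.21, adjusted p = 0.379), but another of its probe sets differed by -0.19. Actr1a, the dynactin subunit centractin, read 10.21, 10.24 and 10.35 against 9.51, 9.41 and 9.53 (-0.79 ± 0.12, adjusted p = 0.16), with narrow spread in both diets. Vldlr, a lipoprotein receptor, differed by -0.88 ± 0.23 (with 1 blank in 0.1 Se liver), -0.46 and -0.43 on its 3 probe sets. Fst, the activin antagonist follistatin, differed by -0.90 ± 0.27 and -0.84 on its 2 probe sets. Rilpl1 lay above 0 (1.13 ± 0.26) with 1 blank in 0.1 Se liver and no overlap of the listed values. The lowest differences over the alternatives were 0.50 for Rilpl1 and 0.45 for Pclaf. Further genes below 0 without overlap were Mpp6 (-1.01 ± 0.29), Hectd2os (-0.89 ± 0.24), Tsc22d1 (-0.84 ± 0.21) and Ank3 (-0.84 ± 0.18). Fign, Terf2ip, Snord89, Snrnp48 and the cohesin subunit Rad21 followed, at -0.83 to -0.78.

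Probe sets listed on all arrays of one diet and on none of the other could not be tested. There were 42 of them in 0.1 Se liver and 55 in 0 Se liver. Named by their mean signal, those in 0.1 Se liver included Stk40, a kinase-like protein (9.86, 9.91 and 9.998), and Zbtb16 (9.65, 9.26 and 9.47), whose tested probe set was also higher. Those in 0 Se liver included Gpank1 (8.91, 9.43 and 9.17) and Tnrc6c (9.28, 8.92 and 9.12), a protein of the miRNA silencing complex. Blanks include absent calls and signals under 100 alike, so no fold is given.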

How the data were processed

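Total RNA of liver had been labelled by the 3′ IVT method and hybridized to 1 array a sample, and the labels call the 3 arrays of a diet biological replicates. The authors computed MAS5 signals, scaled each array independently and dropped absent calls, with R 2.15.2 and affy 1.36.0 given in the submitters' processing notes. Their deposited table has log2 values from 6.64 (a signal of 100) to 16.4 for 29467 probe sets, with blanks for absent calls or lower signals.

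The log2 values were used as deposited by the authors, with 58 control probe sets left out. Gene names came from the array annotation, updated through a RefSeq gene table (24434 of 24504 single-gene probe sets matched by Entrez number), and 4245 probe sets had no annotation. Probe sets with at least 2 values in each diet were compared by limma 3.58.1 in R 4.3.3 (lmFit, eBayes with a trend), with Benjamini-Hochberg adjustment over all 16575 and a threshold of 0.05. The fit was tested on simulated data. Precision is limited by 3 arrays a diet, for which the smallest two-sided p of an exact permutation test is 0.1. List members took the probe set with the highest mean signal of the gene. The lists, the members and the alternatives were chosen with earlier results of these data known.

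Genes were named from a rule: the tested selenoprotein and Sec synthesis genes, probe sets past the test, up to 15 largest differences each way (unadjusted p under 0.01, diets not overlapping), up to 5 members of a list with the smallest p under 0.05 (and up to 3 of the highest signal where fewer than 3 were under it), and up to 6 probe sets listed in one diet only. Of the last 2 groups, some are given by counts alone. Other genes (Fasn, Icam1, Cd74, Itih4, Ifngr1, Ifngr2, Jak1, Jak2, B2m, Canx, Hsp90b1, Hp, Fga, Fgb, Fgg, the hepatocyte markers and members of lists beyond the first 5) were added for their role after their values were seen. Promoter windows came from RefSeq (GRCm38.p6). Alternatives covered filters, quantile normalization, median centring, 32 added to the signal, array weights, the eBayes settings, a block for the replicate number, a fit of all 12 arrays, the methods' t-test, the mean over probe sets and leaving out each array.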

Additional observations from a re-analysis of the deposited data

How the results depend on the processing

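The 2 calls were also made with quantile normalization, median centring, 32 added to the signal, array weights, a robust trend and a filter on mean signal. With values on all 6 arrays required, the count was 1. It was 0 with no trend (1128 probe sets at an unadjusted p under 0.05). With blanks at the lowest value and no filter it was 8, and these 8 did not include the 2. The 12 arrays in one fit gave 13, with Selenow among them but not the unnamed probe set (adjusted p = 0.187). Probe sets of Fmo2, Actr1a, Iffo2 and Cd36 were also among these 13. On leaving out each array the count was 0 to 9. The methods' t-test gave 136 probe sets at its unadjusted threshold with a 1.5-fold change and 0 after adjustment (985 at an unadjusted p under 0.05). A fit with the replicate block gave 0 (1015 at an unadjusted p under 0.05). Both probe sets called in the main fit had an adjusted p of 0.265 in this fit. Deviations from the diet mean correlated at -0.19, -0.02 and -0.01 between arrays of the same number. Between arrays of different numbers they correlated at -0.15 to 0.17. So few correlations cannot show whether the numbers pair the samples, for example by cage or batch. The adjusted p of Selenow lay between 0.00283 and 0.265 over the alternatives.

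Of 118 named probe sets compared, 111 kept their direction. The 7 that did not were near 0 and turned only on leaving out an array, where they ranged from -0.066 to 0.048 for Eefsec, -0.11 to 0.038 for Ncl, -0.28 to 0.11 for Sars, -0.26 to 0.16 for Secisbp2, -0.0058 to 0.20 for Selenos, -0.18 to 0.052 for Sephs1 and -0.24 to 0.15 for Txnrd2. Medians of 21 of 41 lists changed sign under an alternative. Those of the selenoproteins, the interferon lists, the immunoproteasome, MHC class I, acute phase genes, macrophage markers and chaperones did not. Lists with a median near 0 also kept their sign, such as respiratory complex I (0.07) and NRF2 targets (-0.05). A constant sign is thus not particular to lists with large differences. Requiring 2 arrays of a diet in place of 3 gave 282 probe sets listed in 0.1 Se liver only and 276 in 0 Se liver only. Signals under 100 were not listed, which limits what can be said of low genes, and 3 arrays a diet limit the single-gene test.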
